A study of Saccharomyces cerevisiae and Saccharomyces pastorianus with 78 samples.

Results

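The comparison set *Saccharomyces cerevisiae* BY4741 cells taken 2 h after 0.01% SDS was added against BY4741 control cells, with 3 libraries on each side and all genes read. These 6 libraries were chosen by the study's own labels, out of 39 BY4741 libraries and 78 in the series. BY4741 is a haploid laboratory strain of mating type a, labelled WT, that carries deletions in HIS3, LEU2, MET17 and URA3 in every group. The SDS 2 h cells (0.01% SDS, 2 h), and the SDS 1 h and SDS 4 h cells used beside them, came from 1 aliquot of a YPD culture grown at 25 °C. EtOH 2 h cells (7% EtOH, 2 h) came from the other aliquot, and the control was drawn from that EtOH aliquot just before EtOH went in. The SDS aliquot therefore had no control of its own, and with no untreated culture sampled at 2 h, time after the addition and time in culture cannot be told apart. Each group had 3 biological replicates of poly(A) RNA.

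SDS is an anionic detergent that inserts into the plasma membrane and, at low dose, also perturbs the cell wall. Yeast cells meet damage at the surface with several partly separate programmes: the cell wall integrity kinase cascade that ends at the transcription factor Rlm1, the general stress response driven by Msn2 and Msn4, calcium and calcineurin signalling, and the pleiotropic drug response that makes membrane transporters and lipid-handling proteins. Growth programmes such as ribosome synthesis, nutrient uptake and mating readiness are commonly adjusted alongside them.

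The 6 libraries held 6893309 to 8653207 counts. A count of 0 in a library allows up to 3 counts, or 0.347 to 0.435 CPM of the unscaled library totals, which covers counting error only, since no molecular identifiers are described. All other CPM values are counts relative to the TMM-scaled library size, with factors of 0.914 to 1.03 in these 6 libraries. LEU2, MET17 and URA3 had 0 counts in all 6, and HIS3, of which the strain keeps a part, was read in each. The defining genes of mating type a were read in the control, with 627, 619.9 and 686 CPM for STE2, the alpha-factor receptor gene. The alpha-type receptor gene STE3 was read at low levels in both groups, at 4.57, 3.29 and 4.28 CPM in SDS 2 h and 1.23, 1.46 and 1.26 CPM in the control. Replicate 1 of SDS 2 h stood apart from its group: 28 genes at 20 CPM or more lay over 2-fold above the mean of the other 2 replicates, against 1 and 0 genes for replicates 2 and 3, while 7, 13 and 5 genes lay over 2-fold below that mean in replicates 1, 2 and 3. Without replicate 2, 509 of the genes called over control with all libraries kept their call, against 537 without replicate 1 and 541 without replicate 3. Control replicate 1 had 6 genes over 2-fold above the mean of its other 2 replicates, and the other control replicates 0 each. In control replicates 1, 2 and 3, 0, 1 and 4 genes lay over 2-fold below that mean. Of the 28, 10 are purine and one-carbon genes, which are described with and without that library further on.

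Calls required a Benjamini-Hochberg adjusted p under 0.05 in edgeR's quasi-likelihood test together with a log2 fold change, SDS 2 h over control, of at least 1 in either direction. The words "rose" and "fell" are used of called genes alone, and values after them are log2 changes ± SE. Every SE was worked back from the test, as the absolute log2 change divided by the square root of the F statistic. It is not the spread of the replicates. Of 6101 tested genes 578 were called (9.47%), 354 higher (5.8%) and 224 lower (3.67%). The 6101 include 328 features with no RefSeq entry, of which 20 were called higher and 26 lower. Some of these called features have tRNA names, such as tL(UAA)D. The median log2 change of all tested genes was 0.01, and their lower and upper quartiles were -0.29 and 0.33. Among the called genes, 89 rose and 37 fell more than 4-fold. In 565 of the 578 called genes the SDS 2 h and control libraries did not overlap, which was so in 58.3% of all tested genes. RNA was taken from whole cultures, so a lower level can mean less RNA in each cell or fewer cells that hold it, and these cannot be told apart.

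**Figure D1:**
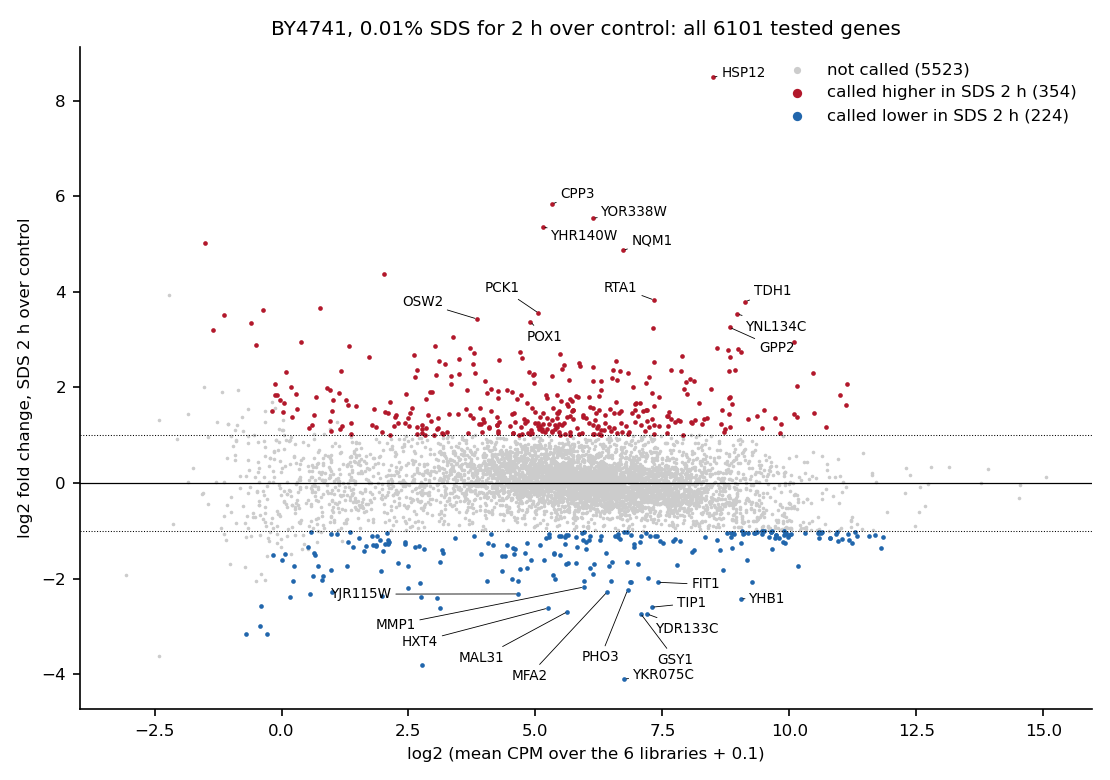
Log2 fold change of SDS 2 h over control (vertical axis) against log2 of the mean CPM over the 6 libraries plus 0.1 (horizontal axis) for the 6101 tested genes. Red points are the 354 genes called higher and blue points the 224 called lower, with dotted lines at the fold limit of 1. Names mark the 12 largest rises and 12 largest falls among called genes of at least 20 CPM in the higher group whose SDS 2 h and control libraries do not overlap.

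HSP12 (YFL014W, chromosome VI, 107256 to 107585; positions are those of RefSeq build R64), which encodes a small membrane-associated stress protein, had the largest rise. It was read at 592, 849 and 715 CPM in SDS 2 h, against 2.21, 0.931 and 2.81 CPM in the control, a log2 change of 8.49 ± 0.57 (SE; adjusted p 1.13e-13 in edgeR). All 3 SDS 2 h libraries were far above all 3 controls, and the control values rest on few reads. CPP3 (YDR034W-B, chromosome IV, 521314 to 521469), a gene of a small cysteine-rich plasma membrane protein of the CYSTM family, stood at 77.2, 81.3 and 77.8 CPM in SDS 2 h and 1.35, 1.33 and 1.41 CPM in the control, a change of 5.84 ± 0.31. The members of each group lay within a few percent of each other. YOR338W (183, 122 and 107 CPM against 3.19, 3.46 and 2.11 CPM in the control) and YHR140W (59.4, 70.4 and 77.4 CPM against 1.47, 2.13 and 1.41 CPM) are genes of little known role and rose by 5.54 and 5.36. TDH1, a minor isozyme gene of the glycolytic enzyme glyceraldehyde-3-phosphate dehydrogenase, reached 775, 1517 and 854 CPM in SDS 2 h, against 96.7, 64.8 and 64.7 CPM in the control (3.80 ± 0.50). Its SDS 2 h replicates differ by up to about 2-fold, yet none comes near a control, and 15.68% of its 50-base windows recur in the genome, so part of its reads could be shared with its paralogs. YNL134C, an alcohol dehydrogenase-like gene, rose by 3.54 ± 0.21 to 904, 929 and 953 CPM, against 80.6, 79.9 and 79.2 CPM in the control. OSW2, a gene named for the outer spore wall, rose at a lower level, with 24.0, 27.7 and 26.9 CPM in SDS 2 h and 3.07, 2.66 and 1.41 CPM in the control (3.43 ± 0.38). These genes were chosen among called genes whose groups do not overlap, so SDS 2 h libraries above every control follow from the choice. Among genes of at least 20 CPM in the control, the largest falls were those of YKR075C, a gene of unknown role, with 7.23, 13.1 and 15.4 CPM in SDS 2 h against 219.6, 232 and 159 CPM in the control (-4.10 ± 0.34), and of YDR133C, an identifier with no RefSeq entry, with 44.4, 42.7 and 27.8 CPM in SDS 2 h and 258, 290.5 and 219 CPM in the control (-2.74 ± 0.27). YHB1, which encodes the nitric oxide-detoxifying flavohemoglobin, fell to 185, 154 and 159 CPM, against 916, 889 and 863 CPM in the control (-2.42 ± 0.23). YJR115W, of unknown role, was at 5.71, 9.28 and 10.3 CPM in SDS 2 h and 45.8, 48.1 and 31.9 CPM in the control (-2.32 ± 0.22). These 4 were chosen in the same way, so SDS 2 h libraries below every control follow from the choice too.

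**Figure D2:**
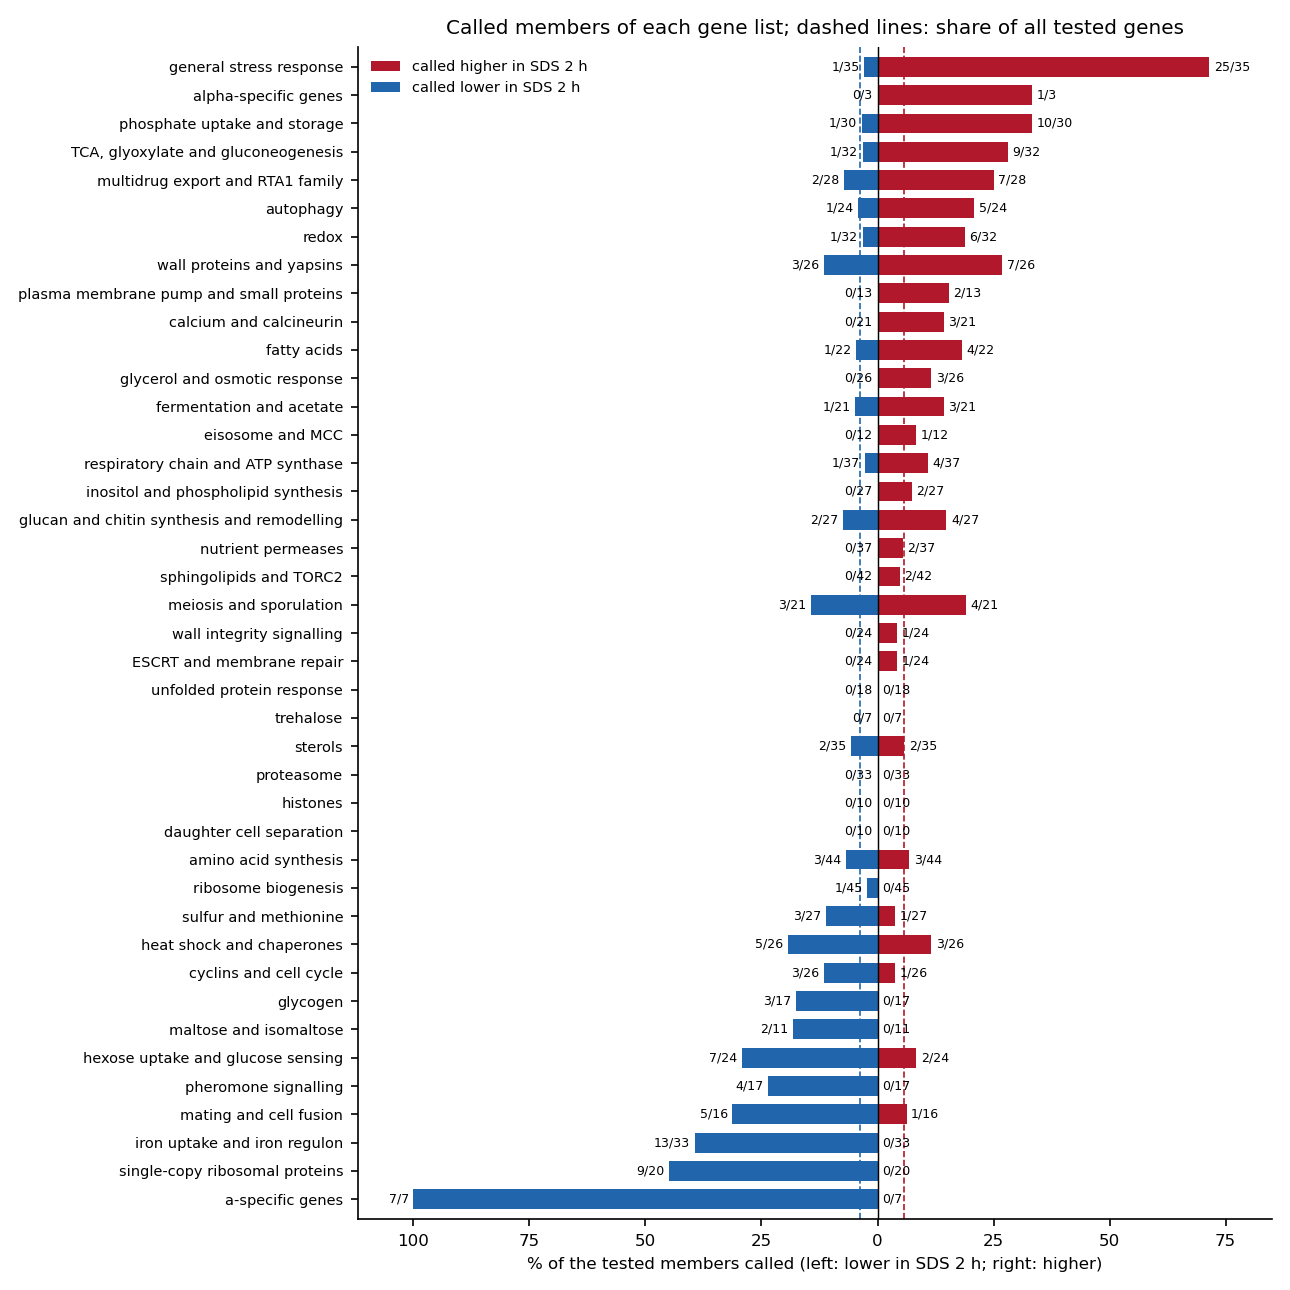
Share of the tested members of 41 gene lists called higher in SDS 2 h (red, to the right) or lower (blue, to the left), with counts beside each bar. Dashed lines mark the shares over all tested genes, 5.8% higher and 3.67% lower. The longest bar to the right is the general stress response, with 25 of 35 members, and the longest to the left the a-specific genes, with 7 of 7.

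All 7 tested a-specific genes of mating fell, and smaller parts of the signalling and fusion lists did. Cells of mating type a make a-factor, export it, and carry the alpha-factor receptor; binding of the partner's pheromone frees a G protein that drives a MAP kinase cascade to the transcription factor Ste12, which acts at promoters through the pheromone response element. The a-specific genes had a median log2 change of -2.0, beside 3.67% of all tested genes called lower and a median of 0.01. The promoter windows of 4 mating genes that fell are printed because all of them hold the core of that element. The word TGAAACA, searched on both strands in the 500 bases before the start codon, occurs in 7 of 7 a-specific promoters and in 11.8% of 5760 promoters of tested genes. Capitals mark the word, and windows run 5′ to 3′ on the gene's strand in RefSeq R64.
MFA2, chrXIV:352209-352235, forward strand: ggaacgaaaaTGAAACAtgcatgtcag
STE2, chrVI:82247-82273, forward strand: tgctttgcaaTGAAACAatagtatccg
FUS1, chrIII:71606-71632, forward strand: ggtgcgatgaTGAAACAaacatgaaac
SST2, chrXII:1041595-1041621, reverse strand: tattcaatttTGAAACAatgatcccaa

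MFA2 (YNL145W, chromosome XIV, 352414 to 352530), which encodes a precursor of the secreted a-factor pheromone, was at 31.2, 26.9 and 28.8 CPM in SDS 2 h and 144, 144 and 135 CPM in the control, a log2 change of -2.28 ± 0.16 (adjusted p 1.72e-13, edgeR). STE2 (YFL026W, chromosome VI, 82580 to 83875), the receptor gene, stood at 185, 182 and 180.4 CPM in SDS 2 h against 627, 619.9 and 686 CPM in the control (-1.82 ± 0.10). Replicates lay close together and the groups were well apart in both genes. MFA1, the other a-factor gene, had 25.4, 18.4 and 24.9 CPM in SDS 2 h and 65.3, 75.8 and 81.8 CPM in the control (-1.69 ± 0.21). The a-factor exporter gene STE6 (-1.40 ± 0.10) and BAR1, whose protease degrades alpha-factor (-2.0 ± 0.13), fell as well. So did AGA2, the binding subunit gene of a-agglutinin (-2.05 ± 0.20), and ASG7, a regulator of signalling (-2.40 ± 0.33), with 1.52, 2.71 and 3.61 CPM in SDS 2 h and 13.4, 11.7 and 16.4 CPM in the control. No SDS 2 h library reached a control value in any of the 7, while groups were apart, either way, in 58.3% of all tested genes.

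Of 17 tested pheromone signalling genes 4 fell and 0 rose (median -0.30), where 3.67% of all tested genes fell and 5.8% rose. SST2 (YLR452C, chromosome XII, 1039270 to 1041366), which encodes the protein that switches the G protein off, was at 46.7, 42.0 and 46.4 CPM in SDS 2 h, against 185, 178 and 204 CPM in the control (-2.07 ± 0.13). GPA1, the G protein alpha subunit gene, fell by 1.34 ± 0.09, with 64.8, 69.6 and 75 CPM in SDS 2 h and 171, 179 and 179 CPM in the control. TEC1, a partner of Ste12 in filamentation, and FAR1, which arrests the cycle in pheromone, changed by -1.91 ± 0.12 and -1.02 ± 0.12. The beta subunit gene STE4 (-0.63), the kinase gene FUS3 (-0.71) and STE12 itself (-0.58) had adjusted p under 0.05 but stayed inside the fold limit, and the kinase genes STE11, STE7 and STE20 lay between -0.28 and 0.25. Of 16 mating and cell fusion genes 5 fell and 1 rose (median -0.51). FUS1 (YCL027W, chromosome III, 71803 to 73341), needed to fuse mating partners, had 14.3, 9.57 and 10.3 CPM in SDS 2 h and 41.7, 40.8 and 37.4 CPM in the control (-1.80 ± 0.22), and AGA1, the anchor subunit of a-agglutinin, 44.1, 37.1 and 38.8 CPM and 132, 125 and 144 CPM (-1.74 ± 0.15). PRM1, which acts in membrane fusion, fell by 1.3 ± 0.21, and so did PRM10 (-1.16 ± 0.21) and FIG1, the last at 0.254, 0.571 and 0.669 CPM in SDS 2 h and 1.23, 1.86 and 1.97 CPM in the control. FIG1 was not called without SDS 2 h replicate 1 (-1.41, adjusted p 0.0773 in edgeR), which left 4 genes of the list lower. PRM8, a pheromone-regulated membrane protein gene, rose (1.53 ± 0.13), and 36.54% of its 50-base windows recur elsewhere. TGAAACA was in 10 of 17 signalling and 11 of 16 fusion promoters, with 2 of 4 and 3 of 5 of the members that fell and 8 of 13 and 7 of 10 of those not called. FAR1 was not called without SDS 2 h replicate 3 (-0.96), without control replicate 1 (-0.99) or without control replicate 3 (-0.95). Of 3 tested alpha-specific genes 1, STE3, was called higher (1.61 ± 0.37), from the low levels given above. In meiosis and sporulation 4 of 21 genes rose and 3 fell (median 0.34): the spore wall gene SPS100 was at 17.9, 18.7 and 18.6 CPM in SDS 2 h and 5.40, 7.18 and 6.33 CPM in the control (1.55 ± 0.34), while IME2, a meiotic kinase gene, fell by 1.37 ± 0.22 and NDJ1, a meiotic telomere gene, fell by 1.77 ± 0.27. Set against EtOH 2 h, a treated culture of the same age in which 4.34% of all tested genes were called lower in SDS 2 h and 11.3% either way, all 7 a-specific genes were also lower (median -1.84), with MFA2 at 149.6, 158 and 190.5 CPM in EtOH 2 h (-2.52 ± 0.16).

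Of 30 phosphate genes 10 rose, among them both high-affinity transporter genes. When phosphate is short, the transcription factor Pho4 binds the E-box CACGTG and induces transporters and secreted phosphatases. In the whole list of 30 tested genes of phosphate uptake and storage 10 rose and 1 fell (median 0.43), where 5.8% of all tested genes rose. CACGTG lies within 500 bases of the start codon in 18 of these 30 promoters and in 6.15% of all 5760; among the members it was in 8 of the 10 that rose and 10 of the 19 not called. PHO84 holds more than 1, and the windows of 3 genes that rose are printed. Both strands were searched, and capitals mark the word.
PHO5, chrII:431189-431214, reverse strand: ttggcactcaCACGTGggactagcac
PHO84, chrXIII:26221-26246, reverse strand: ttaatagttcCACGTGgacgtgttat
PHO84, chrXIII:26199-26224, reverse strand: ttatttccagCACGTGgggcggaaat
PHO89, chrII:798830-798855, reverse strand: gacaatgcagCACGTGggagacaaat

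PHO84 (YML123C, chromosome XIII, 24037 to 25800), the main high-affinity phosphate transporter gene, was at 4491, 2187 and 2907 CPM in SDS 2 h and 1029, 784 and 852 CPM in the control, a change of 1.85 ± 0.21 (adjusted p 8.53e-09, edgeR). PHO89 (YBR296C, chromosome II, 796798 to 798522), the sodium-coupled transporter gene, had 2402, 1487 and 1933 CPM in SDS 2 h, against 327, 255 and 175 CPM in the control (2.94 ± 0.22). Replicate 1 was the highest SDS 2 h library in both, and in both the lowest SDS 2 h value was above the highest control. Groups were apart, either way, in 58.3% of all tested genes. Of the secreted acid phosphatases, PHO5 (YBR093C, chromosome II, 429548 to 430951) rose to 458, 365 and 344 CPM in SDS 2 h, against 84.6, 77.8 and 66.5 CPM in the control (2.35 ± 0.19). PHO11 rose by 2.18 ± 0.15, but 88.27% of its 50-base windows recur in the genome, and its split from the near-copy PHO12 (0.64, not called) is uncertain. PHO3, the acid phosphatase gene controlled by thiamine and not by phosphate, fell, with 53.0, 27.9 and 36.5 CPM in SDS 2 h and 181, 175 and 200.1 CPM in the control (-2.24 ± 0.23; 8.71% of windows recur). PHO3 and PHO5 are neighbours and moved in opposite directions. Other genes that rose were PHM8, a lysophosphatidate phosphatase gene (2.36 ± 0.21), PHM6 (1.95 ± 0.23), SPL2, which restrains low-affinity uptake (1.34 ± 0.22), GDE1, a glycerophosphocholine phosphodiesterase gene (1.21 ± 0.12), and DDP1, a polyphosphatase gene (1.15 ± 0.11). PHO92 was called higher from 0.888, 1.71 and 1.20 CPM in SDS 2 h and 0, 0.133 and 0.141 CPM in the control, where all 3 values are under the floor. The low-affinity transporter genes PHO87 (0.15), PHO90 (-0.54) and PHO91 (-0.25), the regulators PHO4 (-0.09), PHO2 (-0.56), PHO80 (-0.06), PHO85 (0.27) and PHO81 (0.58) and the polyphosphate polymerase genes VTC1 (0.69) and VTC4 (0.35) were not called. Without SDS 2 h replicate 1 the list had 10 genes higher and 2 lower.

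Of 33 iron genes 13 fell and 0 rose. *S. cerevisiae* takes up iron by reducing it with surface reductases and passing it through the Fet3 and Ftr1 oxidase-permease pair, or by importing siderophores caught by mannoproteins of the wall; Aft1 turns these genes on when iron is short, through the core GCACCC. The median of the 33 was -0.75, and 3.67% of all tested genes fell. The core occurs within 500 bases of the start codon in 26 of the 33 promoters and in 7.6% of all 5760, in 12 of the 13 that fell and in 14 of the 20 not called. Capitals mark it, as read or as its reverse complement.
FET3, chrXIII:388432-388457, forward strand: tttactttccGGGTGCgaatcagccc
FET3, chrXIII:388562-388587, forward strand: cttcaaaagtGCACCCatttgcaggt
FTR1, chrV:461899-461924, reverse strand: gtagatgaatGCACCCgatttctaag
FIT1, chrIV:1505168-1505193, reverse strand: actatgccgtGCACCCtgttccgcac

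FET3 (YMR058W, chromosome XIII, 388822 to 390732), the multicopper oxidase gene, was at 285, 222 and 206 CPM in SDS 2 h and 1038, 942 and 1019 CPM in the control, a change of -2.07 ± 0.18 (adjusted p 4.41e-11, edgeR). FTR1 (YER145C, chromosome V, 460526 to 461740), its permease partner, was at 119, 98.0 and 94.4 CPM in SDS 2 h against 318, 333 and 365 CPM in the control (-1.70 ± 0.16). In both genes every SDS 2 h library was below every control, while groups were apart, either way, in 58.3% of all tested genes. FIT1, a wall mannoprotein gene, fell to 78.1, 47.7 and 69.7 CPM, against 238, 256 and 331 CPM in the control (-2.07 ± 0.29); 11.9% of its windows recur. FIT2 and FIT3 changed by -1.13 ± 0.31 and -1.08 ± 0.25, and both lost the fold limit without control replicate 3, where their log2 changes were -0.95 and -0.94. Siderophore transporter genes fell too, ARN2 (-1.61 ± 0.25), ENB1 (-1.25 ± 0.14) and SIT1 (-1.04 ± 0.19), while ARN1 (-0.88) stayed inside the limit. Among reductases, FRE4 (-1.70 ± 0.13) and FRE3 (-1.28 ± 0.26) fell and FRE2 (-0.99), FRE5 (-0.75) and FRE1 (0.09) were not called. The low-affinity transporter gene FET4 had 171, 128 and 116 CPM in SDS 2 h and 349, 322 and 288 CPM in the control (-1.21 ± 0.17), and the mitochondrial carrier gene MRS4 fell by 1.23 ± 0.13. VHT1, a biotin transporter gene, was the last of the 13 (-1.1 ± 0.17). SIT1 was not called without SDS 2 h replicate 2 (-0.87), without SDS 2 h replicate 3 (-0.94) or without control replicate 1 (-0.99) and VHT1 was not called without SDS 2 h replicate 2 (-0.94). Genes of the vacuolar and storage side, FTH1 (0.20), FET5 (0.23) and CCC1 (0.08), the heme oxygenase gene HMX1 (0.73) and the regulators AFT1 (0.12) and AFT2 (0.57) were not called. Over control, the list still had 13 genes lower and 0 higher without SDS 2 h replicate 1. Against EtOH 2 h it had 12 genes lower and 0 higher in SDS 2 h, beside 4.34% of all tested genes called lower and 6.93% higher. FET3 was at 1031, 973 and 1237 CPM in EtOH 2 h (-2.18 ± 0.18).

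**Figure D3:**
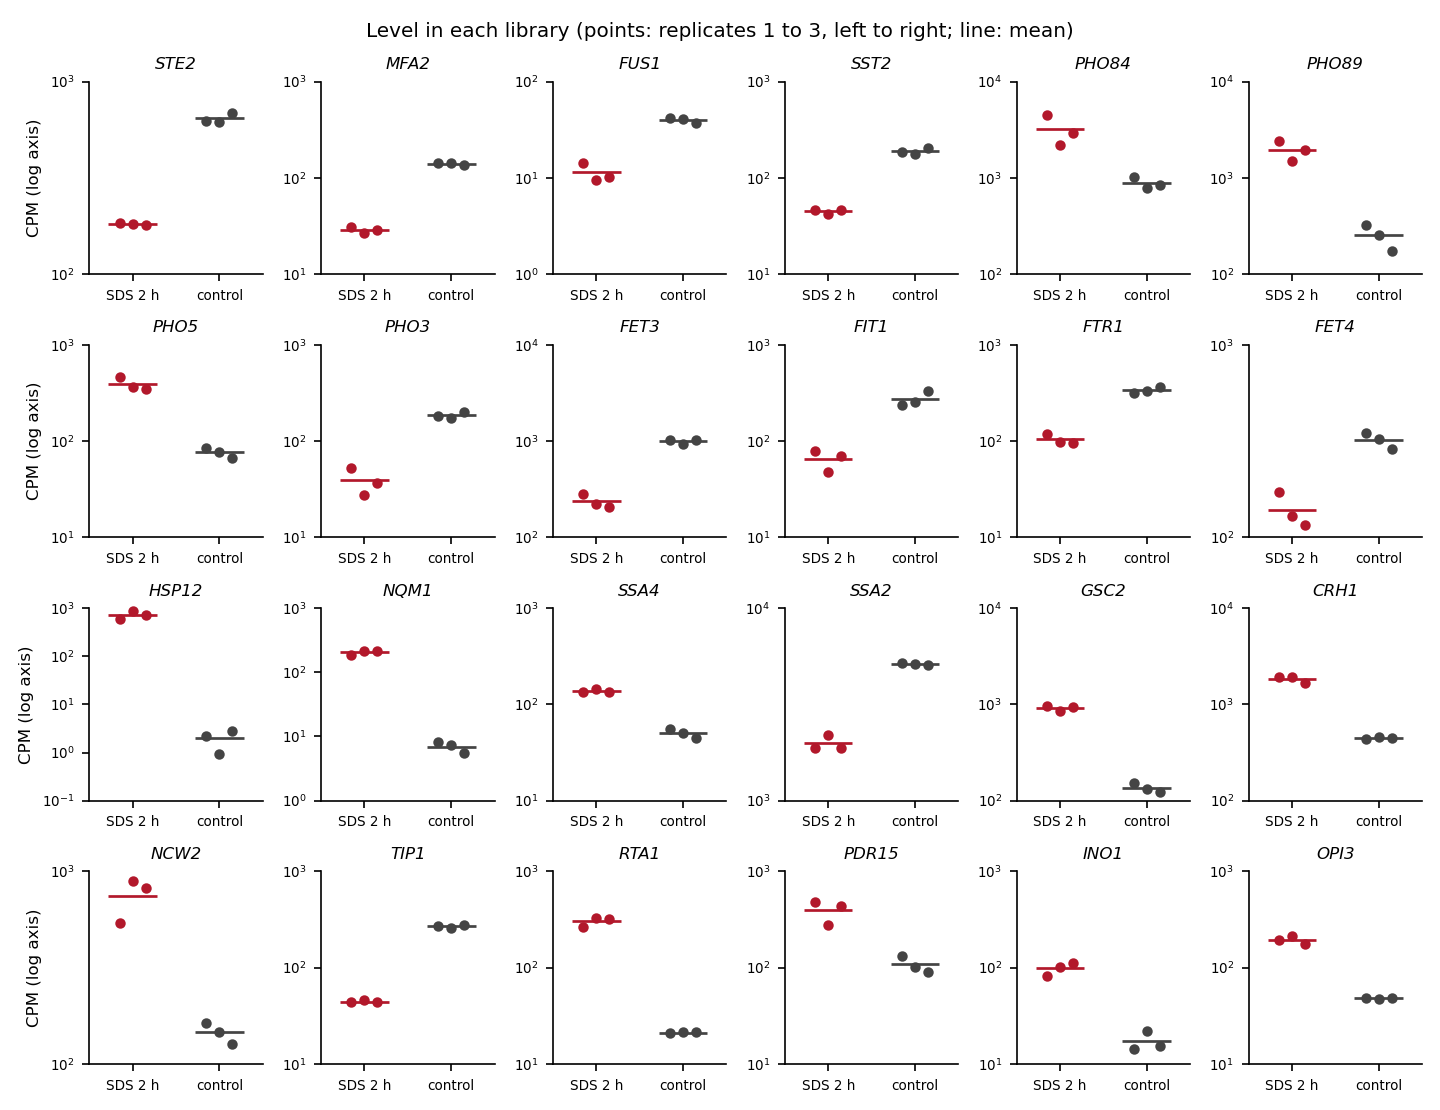
CPM of 24 genes in each library (points, replicates 1 to 3 from left to right; horizontal lines, means; log axis whose range differs between panels), SDS 2 h at the left of each panel and control at the right. In every panel the 3 SDS 2 h points lie on 1 side of the 3 controls, low for the mating, iron and TIP1 panels and PHO3 and SSA2, and high for the others. All 24 were picked from the called genes, of which 565 of 578 are apart in this way, as are 58.3% of all tested genes.

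Of 35 general stress genes 25 rose, while the chaperone list split. Msn2 and Msn4 induce a broad set of genes under many stresses by way of AGGGG, the stress response element. Besides the 25 that rose 1 fell, and the median was 1.39, where 5.8% and 3.67% of all tested genes rose and fell. AGGGG is short and common: it was in 34.3% of 5760 promoters, in 29 of these 35, and in 53.6% of all promoters of genes called higher against 37.6% of those called lower. Within the list it was in 21 of the 25 that rose, 7 of the 9 not called and the 1 that fell. HSP12 holds it 5 times, counting both strands, and the first 3 are printed with the word in capitals.
HSP12, chrVI:106811-106835, forward strand: gcatctgttaAGGGGatatgttgca
HSP12, chrVI:106832-106856, forward strand: tgcaacttgcAGGGGgcggcacaaa
HSP12, chrVI:106869-106893, forward strand: cgtagtaaagAGGGGaaaaggaaaa

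NQM1 (YGR043C, chromosome VII, 580435 to 581436), a gene of a transaldolase paralog, rose to 188, 217 and 211 CPM in SDS 2 h, against 8.10, 7.32 and 5.48 CPM in the control (4.87 ± 0.20, adjusted p 5.35e-19, edgeR). GND2, a minor 6-phosphogluconate dehydrogenase gene of the same pentose phosphate pathway, was at 31.4, 34.7 and 32.6 CPM in SDS 2 h and 4.91, 5.05 and 6.75 CPM in the control (2.57 ± 0.21). AMS1, the vacuolar mannosidase gene, had 271, 280.4 and 274 CPM against 49.5, 46.4 and 45.8 CPM in the control (2.54 ± 0.22). None of these groups overlap, which was so in 58.3% of all tested genes. HOR7 (2.37 ± 0.27), MSC1 (2.36 ± 0.25), TFS1, an inhibitor of carboxypeptidase Y (2.35 ± 0.14), and DDR2 (2.30 ± 0.31) rose more than 4-fold as well. The vacuolar proteinase genes PEP4 and PRB1 rose by 1.39 ± 0.13 and 1.53 ± 0.18, with PEP4 at 1646, 1695 and 1587 CPM in SDS 2 h and 642, 621 and 615 CPM in the control. The GABA-route genes UGA1 (1.54 ± 0.10), UGA2 (1.24 ± 0.20) and GAD1 (1.51 ± 0.18), and the cytosolic catalase gene CTT1 (1.34 ± 0.23), also rose. SIP18 was called from 2.79, 2.43 and 1.20 CPM in SDS 2 h and 0.123, 0.532 and 0.141 CPM in the control, which is around the floor. Not called were MSN2 (0.25), MSN4 (0.68), XBP1 (0.82), YGP1 (0.90) and RTN2 (0.67). SOL4 (-0.11), USV1 (-0.78), YAK1 (-0.77) and PNC1, which barely changed, were not called either. TMA10 was called lower (-1.13 ± 0.36) although its groups overlap, at 14.2, 40.1 and 35.7 CPM in SDS 2 h and 85.5, 74.6 and 36.0 CPM in the control, and the call is lost without a replicate. TMA10 was not called without SDS 2 h replicate 1 (-0.79, adjusted p 0.0814) or without control replicate 1 (-0.89, adjusted p 0.0668) in edgeR. The trehalose list had 0 of 7 genes called: the synthase gene TPS1 was at 0.14, TPS2 at -0.74 and the neutral trehalase gene NTH1 at 0.96. Of the 7, 1 was called higher without SDS 2 h replicate 3 or without control replicate 2.

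Of 26 heat shock and chaperone genes 3 rose and 5 fell (median -0.37), 30.8% called beside 9.47% of all tested genes. SSA4 (YER103W, chromosome V, 364589 to 366517), the stress-induced cytosolic Hsp70 gene, was at 135, 144 and 134 CPM in SDS 2 h and 55.7, 49.9 and 44.4 CPM in the control (1.46 ± 0.55, adjusted p 0.0303), and HSP26, the small heat shock protein gene, at 26, 32.3 and 32.4 CPM and 8.59, 7.32 and 8.01 CPM (1.92 ± 0.68, adjusted p 0.0204). Replicates within these groups are close and do not overlap, but the errors of the fit, which takes 1 spread from all 13 groups, are wide. SSA4 is not called in 5 of the 6 fits that leave out 1 library, with adjusted p up to 0.0863 in edgeR. HSP26 was not called without control replicate 2 (1.86, adjusted p 0.0579) or without control replicate 3 (1.92, adjusted p 0.0508) in edgeR. SSE2, a nucleotide exchange factor gene for Hsp70, was the last that rose (1.56 ± 0.47). SSA2 (YLL024C, chromosome XII, 95566 to 97485), the constitutive Hsp70 gene, fell, with 1882, 2203 and 1881 CPM in SDS 2 h and 5212, 5101 and 5090 CPM in the control (-1.37 ± 0.22); 58.15% of its windows recur, so reads shared with SSA1 (-0.41) are uncertain. HSC82, the constitutive Hsp90 gene, fell by 1.13 ± 0.14, with 2139, 2463 and 2319 CPM in SDS 2 h and 5051, 5039 and 5077 CPM in the control, while its inducible partner HSP82 was at -0.29. CUR1, which sorts misfolded proteins, fell by 2.02 ± 0.52, and STI1, a cochaperone gene of Hsp90, by a smaller amount (-1.02 ± 0.35). BTN2, a relative of CUR1, was at 38.9, 75.7 and 68.3 CPM in SDS 2 h and 312, 141 and 137 CPM in the control (-1.69 ± 0.62). Control replicate 1 is the high one. BTN2 was not called without SDS 2 h replicate 1 (-1.45, adjusted p 0.0997), without SDS 2 h replicate 3 (-1.78, adjusted p 0.051) or without control replicate 1 (-1.19, adjusted p 0.154) and STI1 was not called without SDS 2 h replicate 1 (-0.94, adjusted p 0.0551) or without control replicate 1 (-0.97) in edgeR. Without control replicate 1 the list had 5 called genes in place of 8. The disaggregase gene HSP104 (0.23), HSP60 (-0.40), HSP42 (-0.69) and the regulator HSF1 (0.06) were not called.

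The same lists were set against EtOH at the same time. In SDS 2 h against EtOH 2 h, 0 of the 26 chaperone genes were higher and 18 lower (median -1.63), where 4.34% of all tested genes were called lower and 11.3% either way. SSA4 was at 6586, 4648 and 2138 CPM in EtOH 2 h, against which the SDS 2 h level was -5.02 ± 0.62 on the log2 scale (adjusted p 5.71e-08), and HSP26 was at 1481, 1105 and 439.7 CPM (-5.06 ± 0.64). The EtOH 2 h replicates vary several-fold in both genes, and the lowest is still above every SDS 2 h value. Of the general stress genes 30 of 35 were higher in SDS 2 h than in EtOH 2 h and 0 lower (median 1.65): HSP12 was at 54.9, 43.7 and 30.6 CPM in EtOH 2 h (4.06 ± 0.42) and NQM1 at 10.6, 8.01 and 8.4 CPM (4.51 ± 0.20). HSP30, a plasma membrane heat shock gene, was at 8.24, 11.0 and 10.3 CPM in SDS 2 h and 161, 206 and 119.5 CPM in EtOH 2 h (-4.04 ± 0.68).

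Of the cell wall lists, the wall protein genes had the most calls. They had 38.5% called, against 22.2% of glucan and chitin genes and 4.17% of signalling genes, beside 9.47% of all tested genes. Stress on the wall is read by sensors of the Wsc and Mid families, passed through Rho1, Pkc1 and the kinase Slt2, and answered by Rlm1, whose box is CTANNNNTAG (N, any base). Of 27 genes of glucan and chitin synthesis and remodelling 4 rose and 2 fell (median 0.18); of 26 wall protein and yapsin genes 7 rose and 3 fell (0.26); of 24 signalling genes 1 rose and 0 fell (-0.02). The Rlm1 box was in 5 of 27, 6 of 26 and 7 of 24 of these promoters and in 9.17% of all 5760. Among members that rose the box was in 1 of 4, 2 of 7 and 1 of 1. It was in 4 of 21, 4 of 16 and 6 of 23 of those not called, and in 0 of 2 glucan and chitin and 0 of 3 wall protein genes that fell. It was in 8.98% of the promoters of all genes called higher, close to that background. The windows of 3 wall genes that rose and hold it are printed, with the box in capitals.
GSC2, chrVII:547918-547947, forward strand: aactggtgtgCTAAGAATAGagtttcataa
PST1, chrIV:563212-563241, forward strand: ttacgagtctCTAAAAATAGcgtaggcaca
BAG7, chrXV:578076-578105, forward strand: gttggtgcttCTATAATTAGagcgaaatag

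GSC2 (YGR032W, chromosome VII, 548264 to 553951), which encodes the stress-induced catalytic subunit of glucan synthase, was at 967, 857 and 930.3 CPM in SDS 2 h and 153, 132 and 123 CPM in the control, a change of 2.75 ± 0.21 (adjusted p 1.51e-12, edgeR). FKS1, the growth-time subunit gene, was at 0.21 and not called. CRH1 (YGR189C, chromosome VII, 876669 to 878192), which joins chitin to glucan, stood at 1905, 1903 and 1664 CPM in SDS 2 h against 439, 454 and 450.1 CPM in the control (2.03 ± 0.17), and the glucanase-like gene SCW10 rose by 1.45 ± 0.12. The chitin synthase gene CHS2, used at the septum, fell by 1.02 ± 0.16, and so did GAS3, of the glucan-elongating Gas family (-1.1 ± 0.15). CHS2 was not called without SDS 2 h replicate 2 (-0.86) or without control replicate 2 (-1.0). CHS3 (-0.04), CHS1 (0.71), GFA1 (-0.10), GAS1 (0.12) and KRE6 (0.72) were not called. The call of GAS4, from 2.79, 8.00 and 3.34 CPM in SDS 2 h and 1.1, 2.39 and 2.53 CPM in the control, rests on single libraries. GAS4 was not called without SDS 2 h replicate 2 (0.64, adjusted p 0.263) or without control replicate 1 (0.92, adjusted p 0.109) in edgeR.

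Among wall proteins, NCW2 (YLR194C, chromosome XII, 540809 to 541573), a mannoprotein gene, was at 539.9, 886 and 814 CPM in SDS 2 h and 164, 147 and 127 CPM in the control (2.35 ± 0.15). YPS3, a yapsin protease gene, had 349, 474 and 396 CPM against 103, 98.5 and 80.8 CPM in the control (2.11 ± 0.14). SED1, a major wall glycoprotein gene, was at 3724, 3576 and 2830 CPM in SDS 2 h and 1145, 1167 and 934 CPM in the control (1.64 ± 0.22). In these 3 the groups are apart, as they are, either way, in 58.3% of all tested genes. PST1 (1.33 ± 0.17), CWP2 (1.23 ± 0.14), YPS6 (1.27 ± 0.28) and KDX1, a kinase-like gene next to Slt2 in the pathway (1.18 ± 0.13), rose, whereas CIS3 (0.99), YPS1 (0.74), HSP150 (0.14), ECM33 (0.10) and CCW12 (0.20) were not called. TIP1 (YBR067C, chromosome II, 372103 to 372735), a mannoprotein gene also known from cold shock, fell to 43.6, 45.6 and 44.0 CPM, against 268, 259 and 279 CPM in the control (-2.60 ± 0.22), and in EtOH 2 h it was at 937, 696 and 420.5 CPM (-3.95 ± 0.23 for SDS 2 h over EtOH 2 h). Its relative TIR1 fell by 2.05 ± 0.18 and so did PIR1, a wall protein linked directly to glucan (-1.05 ± 0.14). PIR1 was not called without SDS 2 h replicate 2 (-0.95).

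BAG7 (YOR134W, chromosome XV, 578564 to 579793), a GTPase-activating protein gene for Rho1, was the only signalling gene called, with 32.3, 67.1 and 54.2 CPM in SDS 2 h and 14.5, 7.58 and 9.70 CPM in the control (2.26 ± 0.22). Its level was 2.85, 2.91 and 2.25 CPM in EtOH 2 h (4.26 ± 0.27). The kinase genes SLT2 (0.47), PKC1 (-0.17), BCK1 (-0.31), MKK1 (-0.10) and MKK2 (0.09), RLM1 (0.71), RHO1 (0.60), the phosphatase gene PTP2 (0.81) and the sensor genes SLG1 (-0.15), WSC2 (0.34), WSC3 (-0.71) and MID2 (0.08) were not. Of 21 calcium and calcineurin genes 3 rose and 0 fell (median 0.34): RCN1, which restrains calcineurin, was at 47.6, 68.4 and 71.8 CPM in SDS 2 h and 24.9, 20.8 and 22.6 CPM in the control (1.46 ± 0.15), and the vacuolar calcium pump gene PMC1 at 358, 402 and 383 CPM and 174, 163 and 142 CPM (1.25 ± 0.17). ENA1, the sodium pump gene, rose by 1.33 ± 0.24, but 88.53% of its windows recur in the genome, where it has tandem copies. CRZ1 (-0.09) and the channel genes CCH1 (-0.01) and MID1 (-0.01) were not called. With all libraries 14.3% of the calcium list was called, near the 9.47% of all tested genes. Without SDS 2 h replicate 1, 5 calcium genes were called in place of 3.

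Of 28 multidrug export and RTA1-family genes 7 rose and 2 fell, while the lipid lists held few called genes. Pdr1 and Pdr3 induce drug exporters and lipid-translocating proteins through TCCGNGGA, the pleiotropic drug response element. The median of the list was 0.28, and 5.8% of all tested genes rose and 3.67% fell. The element was in 9 of the 28 promoters and in 2.93% of all 5760, in 4 of the 7 that rose and 5 of the 19 not called. It was in 6.29% of the promoters of all genes called higher. Both strands were searched, and capitals mark the element or its reverse complement in 3 genes that rose.
RTA1, chrVII:919642-919669, reverse strand: aaagatgagtTCCGTGGAtctttggtga
PDR15, chrIV:1278821-1278848, forward strand: gcatgctcgtTCCGCGGAgagtctcgag
TPO4, chrXV:836888-836915, reverse strand: atggccgactTCCACGGAtcccaaaaat

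RTA1 (YGR213C, chromosome VII, 918512 to 919465), whose product spans the membrane and belongs to the family of lipid-translocating exporters, was at 264, 324 and 316 CPM in SDS 2 h and 20.9, 21.3 and 21.4 CPM in the control, a change of 3.83 ± 0.12 (adjusted p 6.61e-22, edgeR). Its controls are nearly equal and its SDS 2 h libraries are all more than 10-fold higher. In EtOH 2 h it was at 17.9, 13.4 and 17.1 CPM (4.22 ± 0.13 for SDS 2 h over EtOH 2 h). PDR15 (YDR406W, chromosome IV, 1279210 to 1283799), an ABC transporter gene of the plasma membrane, had 483, 275 and 433 CPM in SDS 2 h against 133, 102 and 91.0 CPM in the control (1.87 ± 0.28). The polyamine exporter genes TPO1 (2.09 ± 0.19) and TPO4 (1.97 ± 0.34), the exporter gene AQR1 (2.13 ± 0.27), the protoporphyrin transporter gene PUG1 (1.44 ± 0.18) and PDR10 (1.15 ± 0.10) rose as well. PDR12, which exports weak acids, fell by 1.14 ± 0.17, and so did TPO3 (-1.1 ± 0.15), of which 40.77% of windows recur. PDR5 (0.34), SNQ2 (-0.21), YOR1 (0.83), RSB1 (0.01), PDR16 (0.99) and the regulators PDR1 (0.06) and PDR3 (0.07) were not called. SDS 2 h against EtOH 2 h had 11 of 28 higher and 1 lower, where 6.93% and 4.34% of all tested genes were.

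Inositol genes gave 2 called of 27, both higher (median 0.03), or 7.41% beside 9.47% of all tested genes. Ino2 and Ino4 act at a site whose core is CATGTG, found in 15 of the 27 promoters and in 13.1% of all 5760. Among the members it was in both called ones and in 13 of the 25 not called. It was in 11.1% of the promoters of all genes called higher. Both strands were searched, capitals mark the core, and 1 copy of each gene that rose is printed.
INO1, chrX:136161-136186, reverse strand: ctaaatgcggCATGTGaaaagtattg
OPI3, chrX:573132-573157, reverse strand: aatgagagtgCATGTGgaaagttgca

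INO1 (YJL153C, chromosome X, 134332 to 135933), the inositol-3-phosphate synthase gene that starts inositol synthesis, was at 81.3, 102 and 111 CPM in SDS 2 h and 14.3, 22.1 and 15.5 CPM in the control (2.50 ± 0.48, adjusted p 8.28e-05). OPI3 (YJR073C, chromosome X, 572315 to 572935), which methylates phosphatidylethanolamine toward phosphatidylcholine, was at 191, 211 and 177 CPM in SDS 2 h against 47.8, 47.7 and 48.1 CPM in the control (2.01 ± 0.24). CHO2, the step before it in that route, was at -0.89 and not called, and neither were CHO1 (0.15), PSD1 (-0.61), ITR1 (0.79), INO2 (-0.02), INO4 (0.22) or OPI1 (-0.34). INO1 was at 133, 87.6 and 27.9 CPM in EtOH 2 h and was not called in SDS 2 h over EtOH 2 h (0.25 ± 0.43, adjusted p 0.654).

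Of 35 sterol genes 2 rose and 2 fell (median 0.15), and the 11.4% called lies near the 9.47% of all tested genes. ERG26 (1.01 ± 0.11) acts in the removal of sterol methyl groups and HES1 (1.06 ± 0.14) binds sterols; those that fell were the regulator genes SUT1 (-1.48 ± 0.19) and ECM22 (-1.17 ± 0.17). The main flux genes HMG1 (-0.69), ERG1 (0.81), ERG11 (-0.03), ERG3 (-0.11) and ERG6 (0.15) were not called. Sphingolipid and TORC2 genes gave 2 of 42 higher and 0 lower (0.05): the ceramidase gene YDC1 (1.07 ± 0.14) and the hydroxylase gene SCS7 (1.06 ± 0.10). The flippase genes DNF1 (-0.03), DNF2 (0.05) and LEM3 (0.04) and the TORC2 effector gene YPK1 (0.54) were not. Only 1 sphingolipid gene was called without SDS 2 h replicate 2. ERG26 was not called without SDS 2 h replicate 2 (0.96) or without control replicate 1 (0.98), HES1 was not called without control replicate 1 (0.99) and YDC1 was not called without SDS 2 h replicate 2 (0.95). In the fatty acid list 4 of 22 rose and 1 fell (0.20), and the 4 are steps of peroxisomal fatty acid breakdown or entry to it. POX1, the acyl-CoA oxidase gene that opens the spiral, was at 54.4, 45.7 and 63.0 CPM in SDS 2 h and 5.15, 4.39 and 6.19 CPM in the control (3.37 ± 0.29); FOX2 (1.41 ± 0.11), ECI1 (1.56 ± 0.16) and FAA2 (1.26 ± 0.21) rose less, and FAA4, which activates imported fatty acids, fell by 1.40 ± 0.15. The synthase genes FAS1 (-0.43) and FAS2 (-0.23), ACC1 (-0.55) and the desaturase gene OLE1 (0.19) were not called. The sphingolipid list had 4.76% called and the fatty acid list 22.7%.

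Eisosomes are furrows that shape the plasma membrane. Of 12 such genes 1 rose, FMP45, a membrane protein gene of that domain, at 53.5, 40.7 and 42.7 CPM in SDS 2 h against 8.46, 8.51 and 5.06 CPM in the control (2.63 ± 0.25); PIL1 (0.16), LSP1 (-0.36), SUR7 (-0.49) and NCE102 (-0.50) were not called. The eisosome list had 2 higher and 1 lower without SDS 2 h replicate 1; without control replicate 1 or control replicate 2 it had 2 higher and 0 lower, and without control replicate 3, 1 higher and 1 lower. Of 13 genes of the proton pump and small membrane proteins 2 rose, CPP3 and MNC1 (1.69 ± 0.46), both of the CYSTM family. The pump gene PMA1 was at -0.61 and PMP3 at 0.30. Of 24 ESCRT and membrane repair genes 1 rose, RIM8, of the alkaline pH pathway, at 45.4, 97.7 and 98.0 CPM in SDS 2 h and 24.5, 27.7 and 21.2 CPM in the control (1.71 ± 0.45), with replicate 1 lowest in SDS 2 h. SNF7 (-0.06) and VPS4 (0.22) were not called. The shares called were 8.33% for eisosome, 15.4% for pump and small protein and 4.17% for ESCRT genes, beside 9.47% of all tested genes.

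Among carbon genes, more sugar uptake and storage genes fell than rose, and more TCA cycle and gluconeogenic genes rose than fell, where 5.8% of all tested genes rose and 3.67% fell. Of 24 hexose uptake and sensing genes 2 rose and 7 fell (median -0.40). HXT4 (YHR092C, chromosome VIII, 287081 to 288811), a transporter gene of higher affinity, was at 10.7, 10.1 and 11.0 CPM in SDS 2 h and 100.0, 57.5 and 37.1 CPM in the control (-2.62 ± 0.33), and HXT2 at 934, 892 and 1044 CPM and 2271, 2203 and 1922 CPM (-1.16 ± 0.22). The control libraries of HXT4 differ by more than 2-fold among themselves, and the lowest is still above every SDS 2 h value. HXT6 and HXT7 were called lower from single-digit CPM, at 0.761, 1.71 and 2.41 CPM in SDS 2 h and 5.03, 5.19 and 2.81 CPM in the control for HXT6; 95.07% of its windows recur, so the pair is not told apart. MIG2, a glucose repressor gene, was at 18.9, 52.3 and 64 CPM in SDS 2 h and 199, 214 and 151 CPM in the control (-2.07 ± 0.28), MTH1 fell by 1.26 ± 0.31 and so did the invertase gene SUC2 (-1.02 ± 0.13). HXT6 was not called without SDS 2 h replicate 1 (-1.07, adjusted p 0.0715) and SUC2 was not called without SDS 2 h replicate 1 (-0.95), without SDS 2 h replicate 3 (-0.99) or without control replicate 1 (-0.95) in edgeR. HXK1, a hexokinase gene held down on glucose, rose to 233, 322 and 249.8 CPM, against 99.2, 89.0 and 43.0 CPM in the control (1.80 ± 0.28), and HXT5, used in slow growth, also rose (1.13 ± 0.21). HXT1 (0.27), HXT3 (0.27), HXK2 (-0.79), SNF3 (-0.33) and RGT2 (0.16) were not called. Against EtOH 2 h, 3 of the 24 sugar genes were higher and 1 lower in SDS 2 h, near the 11.3% of all tested genes called either way, with HXT4 at 12.1, 11.4 and 11.8 CPM in EtOH 2 h (-0.15 ± 0.37). EtOH 2 h over control, which shares the 3 controls, had 7 of the 24 lower, where 1.28% of all tested genes were called lower.

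MAL31, a maltose permease gene, was at 6.59, 17.1 and 16.2 CPM in SDS 2 h and 98.4, 86.0 and 71.8 CPM in the control (-2.69 ± 0.26), and MAL11 fell by 1.52 ± 0.24; these were the 2 of 11 maltose genes that fell, with 0 higher. Of 17 glycogen genes 3 fell and 0 rose (median -0.16), where 3.67% of all tested genes fell. GSY1 (YFR015C, chromosome VI, 174265 to 176391), a glycogen synthase gene, was at 33.4, 50.4 and 22.1 CPM in SDS 2 h and 262, 279.8 and 158 CPM in the control (-2.73 ± 0.35), the initiator gene GLG1 fell by 1.61 ± 0.18 and so did IGD1, an inhibitor of glycogen debranching (-1.52 ± 0.32). The other synthase gene GSY2 was at -0.28, the branching gene GLC3 at -0.46 and the phosphorylase gene GPH1 at 0.34, none called. GSY1 was at 42.3, 31.2 and 25.6 CPM in EtOH 2 h and not called in SDS 2 h over EtOH 2 h (0.10 ± 0.36, adjusted p 0.844).

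Of 32 genes of the TCA and glyoxylate cycles and gluconeogenesis 9 rose and 1 fell (median 0.78). PCK1 (YKR097W, chromosome XI, 631152 to 632801), which commits carbon to gluconeogenesis, was at 57.8, 62.6 and 63.4 CPM in SDS 2 h and 4.66, 5.85 and 5.06 CPM in the control (3.56 ± 0.15, adjusted p 5.35e-19). CIT2, the peroxisomal citrate synthase gene and a reporter of the retrograde pathway, was at 999, 440.5 and 568 CPM in SDS 2 h, with replicate 1 highest, against 131, 68.0 and 84.6 CPM in the control (2.82 ± 0.30). ACO1, the aconitase gene, had 2337, 2044 and 1969 CPM in SDS 2 h and 770.3, 786 and 746 CPM in the control (1.46 ± 0.16). In all 3 no library crossed between groups, which was so, either way, in 58.3% of all tested genes. The mitochondrial steps CIT1 (1.36 ± 0.13), IDH1 (1.40 ± 0.17) and LSC2 (2.13 ± 0.14), the propionate genes PDH1 (2.38 ± 0.21) and ICL2 (1.39 ± 0.18), and the pyruvate carboxylase gene PYC1 (1.45 ± 0.23) rose. FBP1 (-0.25), ICL1 (-0.82), MLS1 (0.99) and MDH2 (0.01), other genes of gluconeogenesis and the glyoxylate cycle, were not called. Of 37 respiratory chain and ATP synthase genes 4 rose, QCR10 (1.22 ± 0.15), CYT1 (1.19 ± 0.11), COX5B (1.07 ± 0.15) and ATP15 (1.04 ± 0.13), and 1 fell, the activator gene HAP4 (-1.05 ± 0.25); the median of the list was 0.63, and its 13.5% called lies near the 9.47% of all tested genes. Without control replicate 1, 3 respiratory genes were called in place of 5. COX5B was not called without control replicate 3 (0.99), ATP15 was not called without control replicate 1 (0.95) and HAP4 was not called without SDS 2 h replicate 2 (-0.95) or without control replicate 1 (-0.97). Of 21 fermentation and acetate genes 3 rose and 1 fell (0.25): PDC6, a minor pyruvate decarboxylase gene, was at 16.5, 14.0 and 13 CPM in SDS 2 h and 2.7, 1.60 and 3.09 CPM in the control (2.55 ± 0.34), and ALD2 (1.14 ± 0.11) and ALD3 (1.23 ± 0.22), tandem genes of which 40.35% of windows recur, rose too. MPC3, a mitochondrial pyruvate carrier gene, fell by 1.51 ± 0.32, with 16.4, 19.3 and 33.7 CPM in SDS 2 h and 89.3, 73.5 and 34.9 CPM in the control, where the highest SDS 2 h library nearly meets the lowest control. The major genes PDC1 (-0.04) and ALD6 (0.02) were not called.

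Glycerol and osmotic genes gave 3 of 26 higher and 0 lower (median 0.12), and the 11.5% called lies near the 9.47% of all tested genes. GPP2 (YER062C, chromosome V, 279930 to 280682), a glycerol-3-phosphatase gene, was at 815, 859.9 and 789 CPM in SDS 2 h and 96.0, 84.6 and 76.9 CPM in the control (3.26 ± 0.23), GRE2, a methylglyoxal reductase gene, at 719.7, 792 and 795 CPM and 112, 111 and 113 CPM (2.78 ± 0.14), and GCY1 rose by 1.85 ± 0.17. GPD1, which opens the glycerol route (-0.18), HOG1 (-0.23), FPS1 (-0.26) and STL1 (-0.80) were not called. Without SDS 2 h replicate 1, 5 genes were higher. Of 32 redox genes 6 rose and 1 fell (0.17): the peroxiredoxin gene TSA2 was at 47.1, 57.8 and 47.6 CPM in SDS 2 h and 12, 11.4 and 11.9 CPM in the control (2.10 ± 0.13), and GRX1 (1.67 ± 0.11), PRX1 (1.70 ± 0.24), DOT5 (1.26 ± 0.08), OYE3 (1.75 ± 0.26) and GPX1 (1.14 ± 0.17) rose, while SRX1 fell by 1.28 ± 0.36. TSA1 (-0.12), SOD1 (-0.60), TRX2 (0.75) and YAP1 (-0.05) were not called. The redox list had 21.9% called.

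Of 20 ribosomal protein genes 9 fell, and of 45 ribosome assembly genes 1 did, where 3.67% of all tested genes fell and 5.8% rose. The 20 are single-copy genes, read in place of the duplicated ones to avoid shared reads; 0 rose, and their median was -0.99. RPS20 was at 1382, 1449 and 1443 CPM in SDS 2 h and 3297, 3348 and 3548 CPM in the control (-1.25 ± 0.21), and RPP0, of the ribosomal stalk, at 1299, 1306 and 1287 CPM and 2765, 2827 and 3106 CPM (-1.16 ± 0.20). Replicates agree closely on both sides. The 9 that fell lie between -1.0 and -1.25, so the fold limit divides a list whose members are close to it: RPL5 (-0.96), RPS3 (-0.93) and RPL3 (-0.91) lie just short. RPL30 was not called without SDS 2 h replicate 1 (-1.0), without SDS 2 h replicate 2 (-0.96) or without control replicate 3 (-0.95), RPL38 was not called without SDS 2 h replicate 2 (-0.98) or without control replicate 3 (-0.95) and NOP7 was not called without SDS 2 h replicate 2 (-0.87) or without control replicate 3 (-0.96). Of 45 ribosome biogenesis genes 0 rose and 1 fell, NOP7 (-1.01 ± 0.20), with a median of -0.41; the RNA polymerase I gene RPA190 was at -0.64 and NOP1, of box C/D particles, at -0.62. Of the 45, 2 were lower without SDS 2 h replicate 1; without SDS 2 h replicate 2, 1 was higher and 0 lower, and without control replicate 3 none of the 45 was called. The proteasome (0 of 33, median 0.03), the unfolded protein response (0 of 18, 0.14) and the histones (0 of 10, 0.04) had no called gene: RPN4, the proteasome regulator, was at -0.44, KAR2, the chaperone of the endoplasmic reticulum, at -0.55 and HAC1 at 0.38. Autophagy had 5 of 24 higher and 1 lower (0.27). ATG8, whose product coats the forming membrane, was at 38.8, 46.9 and 37.7 CPM in SDS 2 h and 20.0, 19.0 and 18 CPM in the control (1.11 ± 0.24), the receptor genes ATG34 (1.76 ± 0.16) and ATG19 (1.08 ± 0.11) rose with ATG33 (1.49 ± 0.16) and ATG31 (1.23 ± 0.16), and ATG1 (-0.42) was not called. ATG39, a receptor gene of nuclear autophagy, was called lower with overlapping groups, at 1.52, 2.14 and 3.21 CPM in SDS 2 h and 6.75, 4.79 and 3.09 CPM in the control. ATG39 was not called without SDS 2 h replicate 1 (-0.87, adjusted p 0.135), without SDS 2 h replicate 2 (-1.04, adjusted p 0.0869), without control replicate 1 (-0.79, adjusted p 0.19) or without control replicate 2 (-1.12, adjusted p 0.0563) in edgeR.

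Of 26 cyclin and cell cycle genes 1 rose and 3 fell (median -0.19), 15.4% called beside 9.47% of all tested genes. PCL1, a G1 cyclin gene of the kinase Pho85, was at 222, 260.4 and 262 CPM in SDS 2 h and 46.9, 50.8 and 61.9 CPM in the control (2.22 ± 0.12). SWI5 (-1.18 ± 0.15), a transcription factor gene of the exit from mitosis, and CDC20, which triggers anaphase (-1.08 ± 0.13), fell. SWI5 was at 48.5, 42.6 and 50.8 CPM in SDS 2 h and 109.8, 108 and 105 CPM in the control. CDC20 was not called without SDS 2 h replicate 2 (-0.97). CLN1 (0.32), CLN2 (0.85), CLN3 (-0.51), CLB2 (-0.50), CLB5 (-0.10) and RNR1 (-0.40) were not called. Among 10 genes of daughter cell separation, 0 were called (median -0.62), with CTS1 at -0.41 and EGT2 at -0.91. Without SDS 2 h replicate 1, 2 of them were lower.

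Amino acid synthesis had 3 of 44 higher and 3 lower (median 0.06), sulfur and methionine 1 of 27 higher and 3 lower (-0.16), and nutrient permeases 2 of 37 higher and 0 lower (0.14), beside 5.8% higher and 3.67% lower over all tested genes. SER3, which opens serine synthesis, was at 364, 389.6 and 403 CPM in SDS 2 h and 94.7, 102 and 100.0 CPM in the control (1.96 ± 0.12). LEU1 (1.18 ± 0.23) and CPA1 (1.3 ± 0.18) rose, and LEU9 (-1.20 ± 0.16), HIS4 (-1.12 ± 0.17) and LYS20 (-1.03 ± 0.15; 37.8% of windows recur) fell. HIS4 was not called without SDS 2 h replicate 2 (-0.95) and LYS20 was not called without SDS 2 h replicate 2 (-0.87) or without SDS 2 h replicate 3 (-0.92). In the sulfur list, MMP1 (YLL061W, chromosome XII, 17956 to 19707), the S-methylmethionine permease gene, was at 24.5, 25.0 and 17.5 CPM in SDS 2 h and 90.2, 116 and 97.2 CPM in the control (-2.18 ± 0.27), MHT1, which uses that compound, fell by 1.83 ± 0.26, and MET16, of sulfate assimilation, rose by 1.28 ± 0.20. GAP1, the general amino acid permease gene, rose to 102, 80.7 and 98.8 CPM, against 46.5, 37.0 and 34.6 CPM in the control (1.25 ± 0.16). GCN4 (0.16) and MET4 (0.07) were not called. Without SDS 2 h replicate 1 the sulfur list had 5 genes lower and the permease list 3 higher and 1 lower; without SDS 2 h replicate 3 or control replicate 2, 1 permease gene was higher and 0 lower.

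Purine and one-carbon genes depended on SDS 2 h replicate 1. These 17 genes (16 of them tested) were put together after their values were seen, because that library stood apart in them. SDS 4 h replicate 1 was also the highest of its group in several of them, with ADE17 at 317, 166 and 168 CPM and SHM2 at 566, 367 and 398 CPM in SDS 4 h. ADE17, which carries out the last steps of purine ring synthesis, was at 609.7, 130.4 and 136 CPM in SDS 2 h and 582, 505 and 530.2 CPM in the control: replicate 1 sat above all controls and replicates 2 and 3 far below them. With all libraries its change was -0.88 ± 0.36 and it was not called; without replicate 1 it was -2.02 ± 0.28 (adjusted p 9.81e-07, edgeR). SHM2, which feeds one-carbon units from serine, was at 1228, 265 and 285 CPM in SDS 2 h and 713, 628 and 729 CPM in the control, and changed by -0.22 with all libraries and -1.33 without replicate 1. MET6, the methionine synthase gene, was at 609, 152 and 141 CPM in SDS 2 h and 377, 337 and 296 CPM in the control (-0.16, and -1.20 without replicate 1). Replicate 1 was the highest SDS 2 h library in 15 of the 16 tested genes, at 0.956 to 4.58 times the mean of the other 2. That count follows in part from how the genes were chosen. Over the 16, 1 gene was called with all libraries, ADE6 (-1.07 ± 0.19), and 5 were without replicate 1. ADE6 was not called without SDS 2 h replicate 2 (-0.81) or without SDS 2 h replicate 3 (-0.90). The source of the difference between replicates was not tested.

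**Figure D4:**
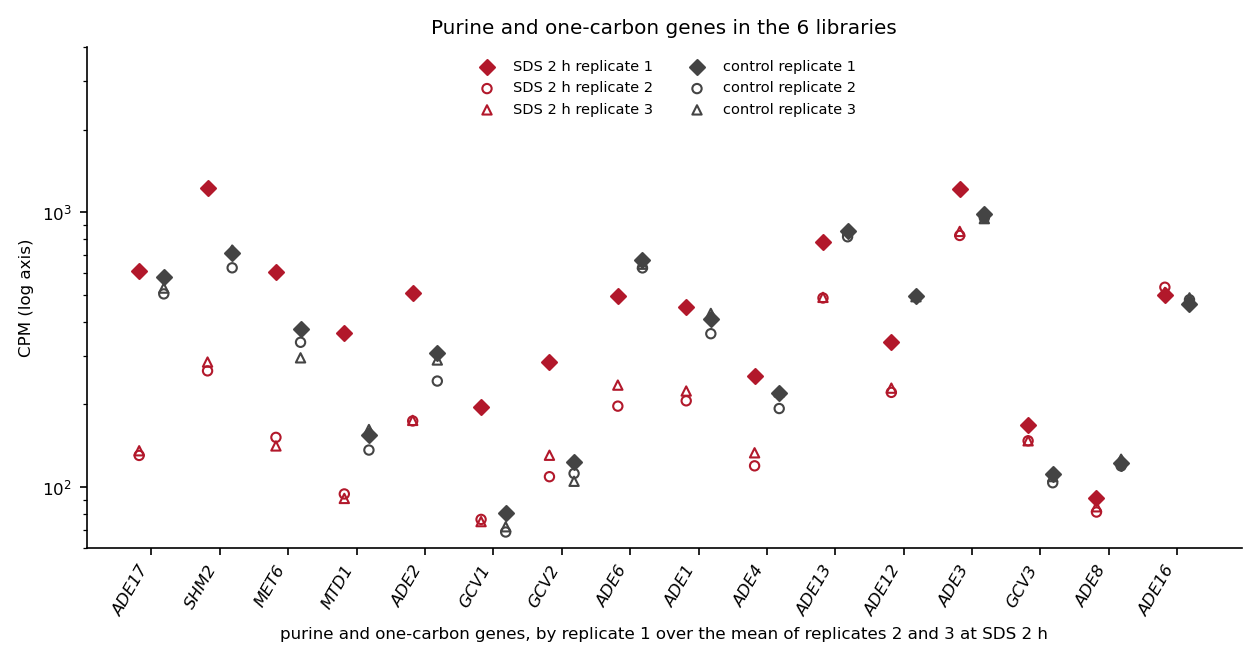
CPM (log axis) of 16 purine and one-carbon genes in the 3 SDS 2 h libraries (red, left of each pair) and the 3 controls (dark, right); filled diamonds are replicate 1, open circles replicate 2 and open triangles replicate 3. In ADE17, SHM2, MET6 and MTD1 the red diamond lies above the controls while the other red points lie below them.

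Few genes separated SDS 2 h from its neighbouring times. SDS 2 h against SDS 1 h called 55 genes of 6101 (0.901%), 47 higher (0.77%) and 8 lower (0.131%), and SDS 2 h against SDS 4 h called 70 (1.15%), 2 higher (0.0328%) and 68 lower (1.11%). The balance depends on the fold limit: by adjusted p under 0.05 alone (edgeR), 286 genes were higher and 305 lower in SDS 2 h than in SDS 1 h, and 568 higher and 303 lower than in SDS 4 h. NQM1 was at 188, 217 and 211 CPM in SDS 2 h against 66.9, 62.4 and 63.8 CPM in SDS 1 h (1.67 ± 0.16, adjusted p 2.81e-08, edgeR) and 338, 428 and 564 CPM in SDS 4 h (-1.11 ± 0.15). PCK1 was at 57.8, 62.6 and 63.4 CPM in SDS 2 h, against 21.3, 20.9 and 16.7 CPM in SDS 1 h (1.64 ± 0.13) and 157, 155 and 135 CPM in SDS 4 h (-1.28 ± 0.12). In both genes the 3 times do not overlap, and the levels are higher at each later time. RTC3 was at 106, 147 and 119 CPM in SDS 2 h and 49.4, 32.6 and 36.8 CPM in SDS 1 h (1.65 ± 0.41), and PRM10, a pheromone-regulated gene that was lower than control at 2 h, at 25.1, 22.3 and 21.0 CPM and 8.62, 7.88 and 5.65 CPM (1.63 ± 0.24). ADE17 was called higher than at 1 h (1.70 ± 0.37, adjusted p 0.00292), and not without replicate 1 (0.56, adjusted p 0.262). Of 10 histone genes 3 were higher in SDS 2 h than in SDS 1 h and 0 lower (median 0.90): HTA2 was at 463, 529 and 467 CPM in SDS 2 h and 181, 189 and 176 CPM in SDS 1 h (1.42 ± 0.17), with HHF1 (1.24 ± 0.18) and HTB2 (1.18 ± 0.18). The 45 ribosome biogenesis genes had a median of 0.40 over 1 h and no call.

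Lower at 2 h than at 1 h were GAP1 (102, 80.7 and 98.8 CPM in SDS 2 h and 298, 274 and 274 CPM in SDS 1 h, -1.59 ± 0.16), PDH1 (-1.47 ± 0.19), MFA2 (-1.24 ± 0.16), GDH1, the main ammonia-assimilating dehydrogenase gene (-1.20 ± 0.16), and ACO1 (2337, 2044 and 1969 CPM and 5021, 4544 and 4485 CPM, -1.15 ± 0.16). ACO1 was also 1 of the 2 genes higher than at 4 h (1252, 988 and 907 CPM in SDS 4 h, 1.01 ± 0.16), with LEU1 (1.08 ± 0.23); its call over 4 h sits at the fold limit. ACO1 was not called without SDS 2 h replicate 1 (0.94), without SDS 4 h replicate 2 (0.97) or without SDS 4 h replicate 3 (0.92). The 68 genes lower than at 4 h included 12 of 35 general stress genes, 0 higher (median -0.44). SPS100 was at 17.9, 18.7 and 18.6 CPM in SDS 2 h and 116, 145 and 154 CPM in SDS 4 h (-2.91 ± 0.28), and INO1 at 81.3, 102 and 111 CPM and 392, 469 and 508 CPM (-2.22 ± 0.44). DDR2 (-1.83 ± 0.25), CTT1 (-1.72 ± 0.21) and HSP26 (-2.03 ± 0.58) were lower too. SPS100 and INO1 do not overlap between the times. HSP26 was not called without SDS 2 h replicate 1 (-1.93, adjusted p 0.0591), without SDS 2 h replicate 2 (-2.10, adjusted p 0.0572) or without SDS 4 h replicate 2 (-1.91, adjusted p 0.0536) in edgeR. Each time was also set against the control: 0.5 h had 1163 called genes (19.1%), 1 h had 692 (11.3%), 4 h had 639 (10.5%), 8 h had 375 (6.15%) and 20 h had 285 (4.67%). These comparisons share the same 3 controls with the one at 2 h.

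**Figure D5:**
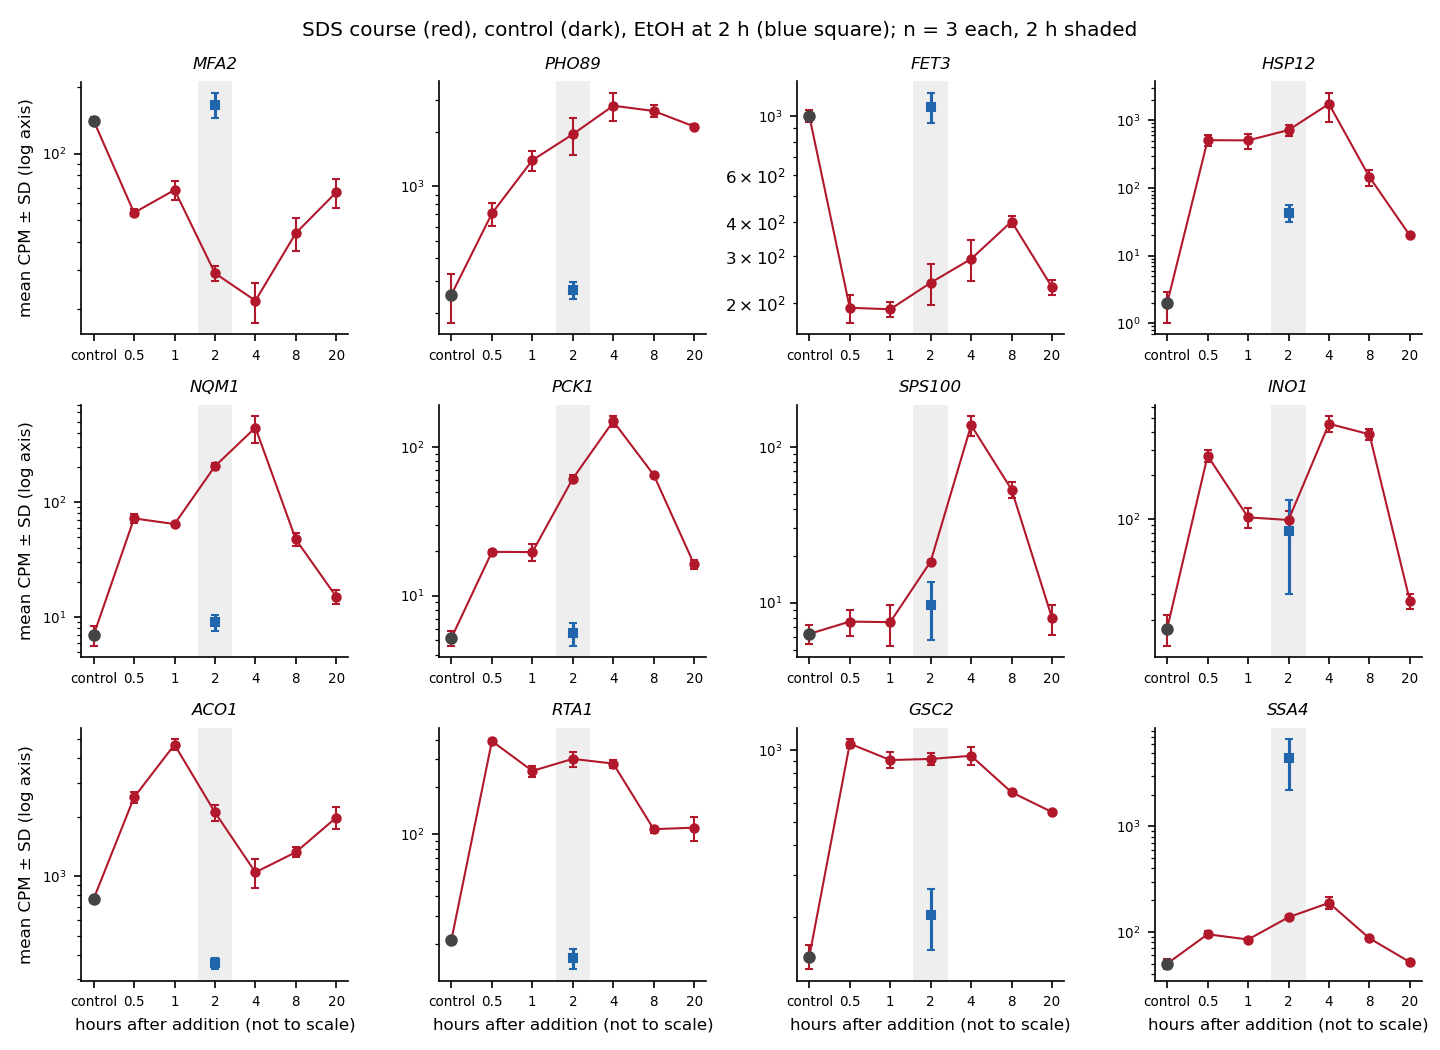
Mean CPM ± SD (n = 3, log axis whose range differs between panels) of 12 genes in the control (dark point) and at 6 times from 0.5 to 20 h after SDS was added (red line, times not to scale), with EtOH 2 h as a blue square; 2 h is shaded. NQM1 and PCK1 peak at 4 h, ACO1 at 1 h, and SSA4 in EtOH 2 h lies above its whole SDS course.

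Against EtOH 2 h, 688 of 6101 genes were called (11.3%), 423 higher (6.93%) and 265 lower (4.34%) in SDS 2 h, while EtOH 2 h itself differed from the control in 173 genes (2.84%). The 5 largest differences upward among genes of at least 20 CPM were CPP3 (77.2, 81.3 and 77.8 CPM in SDS 2 h and 1.22, 2.33 and 1.66 CPM in EtOH 2 h, 5.50 ± 0.30), NQM1, YHR140W (4.47 ± 0.22), BAG7 and RTA1. Those downward were HSP26, SSA4, BTN2 (-4.18 ± 0.68), HSP30 and TIP1. The TCA and gluconeogenesis list had 15 of 32 genes higher and 0 lower (median 0.97), and PCK1 was at 6.37, 5.83 and 4.50 CPM in EtOH 2 h (3.47 ± 0.15). Wall proteins had 9 of 26 higher and 3 lower (0.56), with NCW2 at 57.0, 69.8 and 68.1 CPM in EtOH 2 h (3.52 ± 0.16) and GSC2 of the glucan list at 266, 191 and 152 CPM (2.18 ± 0.20). Phosphate genes had 5 of 30 higher and 1 lower, with PHO89 at 298, 263 and 239 CPM in EtOH 2 h (2.86 ± 0.22) and PHO84 at 1684, 1618 and 1502 CPM (1.00 ± 0.20, adjusted p 0.000121). The last of these is at the fold limit.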

How the data were processed

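The deposited file used here is a table of whole-number counts per gene for the 39 BY4741 libraries, which the authors made from poly(A) RNA. Per the submitters' processing notes, the tools were STAR 2.7.8, featureCounts 2.0.1, Trimmomatic 0.39 and FastQC 0.11.9, and the build was R64. No source used here gives the strand setting or the treatment of reads that map to several places, so overlapping antisense genes and near-copies are uncertain. Groups come from the labels. Genes were kept by filterByExpr, which left 6101, and fitted over all 39 libraries in 13 groups with edgeR 4.0.16 (R 4.3.3; TMM scaling, quasi-likelihood test, 26 residual degrees of freedom, Benjamini-Hochberg adjustment over all tested genes); CPM values are TMM-scaled. Replicate numbers were not taken as pairs, since in no comparison did every same-numbered pair of libraries have a correlation of deviations over 0.1. The fit was tested on simulated data. Symbols, positions and promoter sequence are RefSeq R64, matched for 6047 of 7127 features. Motif words were searched in the 500 bases before the start codon. Fits with DESeq2 1.42.0, RLE scaling, no count filter, the 6 compared libraries alone, a replicate block and each library left out were run as alternatives. The genes and lists were chosen with earlier results of these data known. Named genes are the 12 largest rises and 12 largest falls among called, non-overlapping genes of at least 20 CPM in the higher group, list members by size and role, and the 5 largest in each direction of the other contrasts; the purine genes and those of the closing section were chosen after their values were seen. A gene that fell in each of the TCA and cell cycle lists is counted there but not reported by name here.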

Additional observations from a re-analysis of the deposited data

How the results depend on the processing

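None of the 238 single-gene values that were followed changed sign under any alternative. They cover the largest changes of each contrast and the called list members over control. Other genes named here were not all followed in this way. In no contrast did an alternative call a gene in the direction opposite to its call in the main fit. Without the fold limit, the number of genes with an adjusted p under 0.05 (edgeR) was 2824 for SDS 2 h over control (1491 higher, 1333 lower), 591 over SDS 1 h (286 higher, 305 lower), 871 over SDS 4 h (568 higher, 303 lower) and 3063 over EtOH 2 h (1606 higher, 1457 lower), so the balance turned over SDS 1 h and SDS 4 h. Leaving out 1 library at a time gave 543 to 602 called genes over control, 50 to 57 over SDS 1 h, 56 to 79 over SDS 4 h and 636 to 738 over EtOH 2 h; 444 of the 578 called over control were called in all 6 of those fits. DESeq2 called 589 genes over control, 574 of them among the 578, RLE scaling 577 (571 shared), no count filter 598 (560 shared) and the 6 libraries alone 546 (543 shared). With the replicate block 581 genes were called over control, 575 of them among the 578, and 58, 72 and 692 over SDS 1 h, SDS 4 h and EtOH 2 h; the correlations of deviations between same-numbered SDS 2 h and control libraries were 0.03, 0.12 and -0.03. With SDS 4 h they were 0.19, 0.22 and 0.09, and each library correlated best with its own number. The SDS times came from 1 aliquot, so libraries of the same number may share a culture, which was not tested. In no comparison were all 3 over 0.1, so the numbers were not taken as pairs. Of 238 single-gene values, 40 lost their call in at least 1 alternative. The floor of 3 counts limits genes under about 0.4 CPM, and the lack of an untreated culture at 2 h limits every comparison with the control.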

Other observations

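Gene families outside the lists were looked at after their values were seen, so the following are descriptions. Some minor isozyme genes of glycolysis rose where the major ones were not called. ENO1, the enolase gene of lower expression on glucose, was at 3051, 4657 and 3187 CPM in SDS 2 h and 938, 819.5 and 816 CPM in the control (2.08 ± 0.37), while ENO2 was at 20530, 22250 and 20020 CPM and 25870, 25340 and 26770 CPM (-0.31 ± 0.10, not called). GPM2 rose to 38.2, 58.7 and 37.8 CPM, against 7.36, 7.05 and 5.62 CPM in the control (2.74 ± 0.39), with GPM1 at 0.33 ± 0.11 and GPM3 at -0.31 ± 0.11. TDH1 rose by 3.80, beside 0.34 for TDH2 and 0.13 for TDH3. Reads shared between the enolase paralogs (23.64% of 50-base windows recur) and between the TDH paralogs limit these pairs, and the GPM genes have no such window. Against EtOH 2 h, TDH1 was lower in SDS 2 h (-1.55 ± 0.45), and ENO1 (-0.27 ± 0.35) and GPM2 (-0.62 ± 0.32) were not called.

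The 6 genes of the MCM helicase, which unwinds DNA at replication origins, were lower in all 3 SDS 2 h libraries than in any control. Such separation, either way, was seen in 58.3% of all tested genes. MCM7 was called lower, at 46.9, 36.6 and 49.3 CPM in SDS 2 h and 115, 129 and 124 CPM in the control (-1.47 ± 0.10). So were MCM5 (-1.12 ± 0.07) and MCM3 (-1.1 ± 0.08). MCM2 (-0.92), MCM6 (-0.76) and MCM4 (-0.61) stayed inside the fold limit, as MCM3 did without SDS 2 h replicate 2 (-0.98). Besides PEP4 and PRB1, the vacuolar carboxypeptidase genes PRC1 (1.05 ± 0.13) and CPS1 (1.20 ± 0.13) and the aminopeptidase gene APE1 (1.34 ± 0.21) rose, and so did PBI2, an inhibitor of Prb1 (1.83 ± 0.18); other vacuolar genes were not counted. The genes of aromatic amino acid breakdown ARO9 (70.1, 61.0 and 51.1 CPM in SDS 2 h and 18.5, 19.3 and 23.6 CPM in the control, 1.57 ± 0.29) and ARO10 (1.54 ± 0.29) rose, while the transaminase gene ARO8 was at -0.10. SAM3, the S-adenosylmethionine permease gene, fell by 2.06 ± 0.18, and so did SAM4, a homocysteine methyltransferase gene that uses that compound (-1.17 ± 0.14). The phospholipase B genes split, with PLB1 at 721, 831 and 789 CPM in SDS 2 h and 133, 124 and 121 CPM in the control (2.63 ± 0.20), PLB2 at 68.5, 69.3 and 78.5 CPM and 162, 168 and 192 CPM (-1.27 ± 0.21) and PLB3 at -0.12. DLD1, a mitochondrial lactate dehydrogenase gene, rose to 889, 871 and 899 CPM, against 124, 130.5 and 124 CPM in the control (2.81 ± 0.08, adjusted p 8.31e-23, edgeR). Of the 578 called genes 376 are in none of the lists, and of all 6101 tested genes 5114 are in none.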
